A study of Mus musculus with 24 samples.

Results

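Medulloblastoma cells grown with epidermal growth factor (EGF) and basic fibroblast growth factor (bFGF) were compared with parental cells that carry the same line names. The members are the 11 arrays that GEO's titles name for this contrast, 3 growth factor arrays and 8 parental arrays, of 24 arrays in all. The growth factor group had 1 array from each of the lines SMB21, SMB55 and SMB56. The parental group had 4 SMB21 arrays and 2 arrays for each other line. The growth factor cells had spent over 3 weeks in DMEM/F12 with B27 and Pen/Strep plus EGF at 20 ng/mL, bFGF at 20 ng/mL and 0.2% heparin, whereas the parental cells grew as neurospheres in the same base medium without these additions. EGF, bFGF and heparin were added together, so their parts in a change cannot be told apart. A further 7 arrays of RAS transformed cells of the same lines served for one direct comparison, after the main one. All 3 groups carry the Ptch1 mutation, are labelled adult, and come from tumors that arose spontaneously in Ptch+/- mice, so each line is a model of 1 tumor. RNA was hybridised to Affymetrix mouse arrays, which read the brightness of short probes for each transcript.

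EGF and bFGF bind receptor tyrosine kinases, which activate RAS and then the kinases RAF, MEK and ERK. Active ERK induces its own inhibitors of the Dusp, Spry and Spred families and transcription factors such as Egr1 and the Etv genes, which is why transcripts of these genes are read as ERK output. Sonic hedgehog acts through another route: Ptch1 holds the membrane protein Smo in check, and its loss lets the Gli factors drive proliferation of cerebellar granule neuron precursors, the cells from which this type of medulloblastoma arises.

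Before the comparison, 2 features of the parental arrays need stating. The Y-linked genes Kdm5d, Uty and Eif2s3y differed between arrays that carry the same line name. On the SMB21 growth factor array they read 8.86, 7.78 and 9.98 on the log2 scale, and on SMB21 parental array 1 they read 9.14, 7.97 and 9.54, whereas on SMB21 parental arrays 2 to 4 they lay between 4.94 and 5.15. Kdm5d and Uty read 8.26 and 8.35 on the SMB56 growth factor array and 8.73 and 8.65 on SMB56 parental array 1, with Eif2s3y at 5.06 and 4.93, while SMB56 parental array 2 read 8.25, 7.82 and 9.23 for the 3 genes. No SMB55 array reached 5.2 for any of them. The growth factor arrays thus had the Y-linked pattern of parental array 1 of their line in all 3 lines. SMB21 parental arrays 2 to 4 were also closer to each other (r = 0.992 to 0.996 over all genes) than the other pairs of parental arrays within SMB21 and SMB55 (r = 0.969 to 0.978). SMB56 parental array 2 correlated at 0.98 with an SMB55 parental array and at 0.944 with the other SMB56 parental array. Counts without these arrays stand beside the results below.

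A broad set of genes differed between the growth factor and parental arrays, in both directions. Of 12393 genes, 505 rose (4.07% of those tested) and 589 fell (4.75%) at an adjusted p under 0.05, 1094 in all (8.83%). Among them 333 rose and 166 fell at least 2-fold, and 103 rose and 43 fell at least 4-fold. The median difference of all genes was -0.01 on the log2 scale. In 487 of the 505 genes that rose, each growth factor array lay above every parental array of its own line, against 8.09% of all genes with that pattern. In 570 of the 589 that fell, each lay below, against 10.6% of all genes. The same arrays chose these genes, so this pattern describes them and is no further support.

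The counts moved with the arrays and the block in the fit. With SMB21 parental arrays 2 to 4 averaged into 1 value, 173 genes rose and 148 fell. With the replicate number as a block, 379 rose and 385 fell. With only the arrays numbered 1, paired by line, limma called 0 genes in either direction, although 2301 had an unadjusted p under 0.05. With only the parental arrays that match the Y-linked genes of the growth factor array of their line, 3 genes rose and 0 fell, with 2170 at an unadjusted p under 0.05. All 1094 genes kept their sign in each of these fits, which reuse the same growth factor arrays. Without the SMB56 growth factor array 187 rose and 137 fell, and without the SMB21 growth factor array 293 and 225. Leaving out SMB21 parental array 3 gave 323 and 341 genes, SMB21 parental array 4 gave 333 and 356, and SMB21 parental array 2 gave 341 and 382. Leaving out SMB56 parental array 2 gave 497 and 525, and leaving out both it and SMB21 parental array 1 gave 509 and 577. Of the 100 called genes that are named here, 71 passed with the replicate block, 55 with the SMB21 arrays averaged and 84 without those 2 parental arrays. The plot of calls under each setting shows these counts together.

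**Figure D1:**
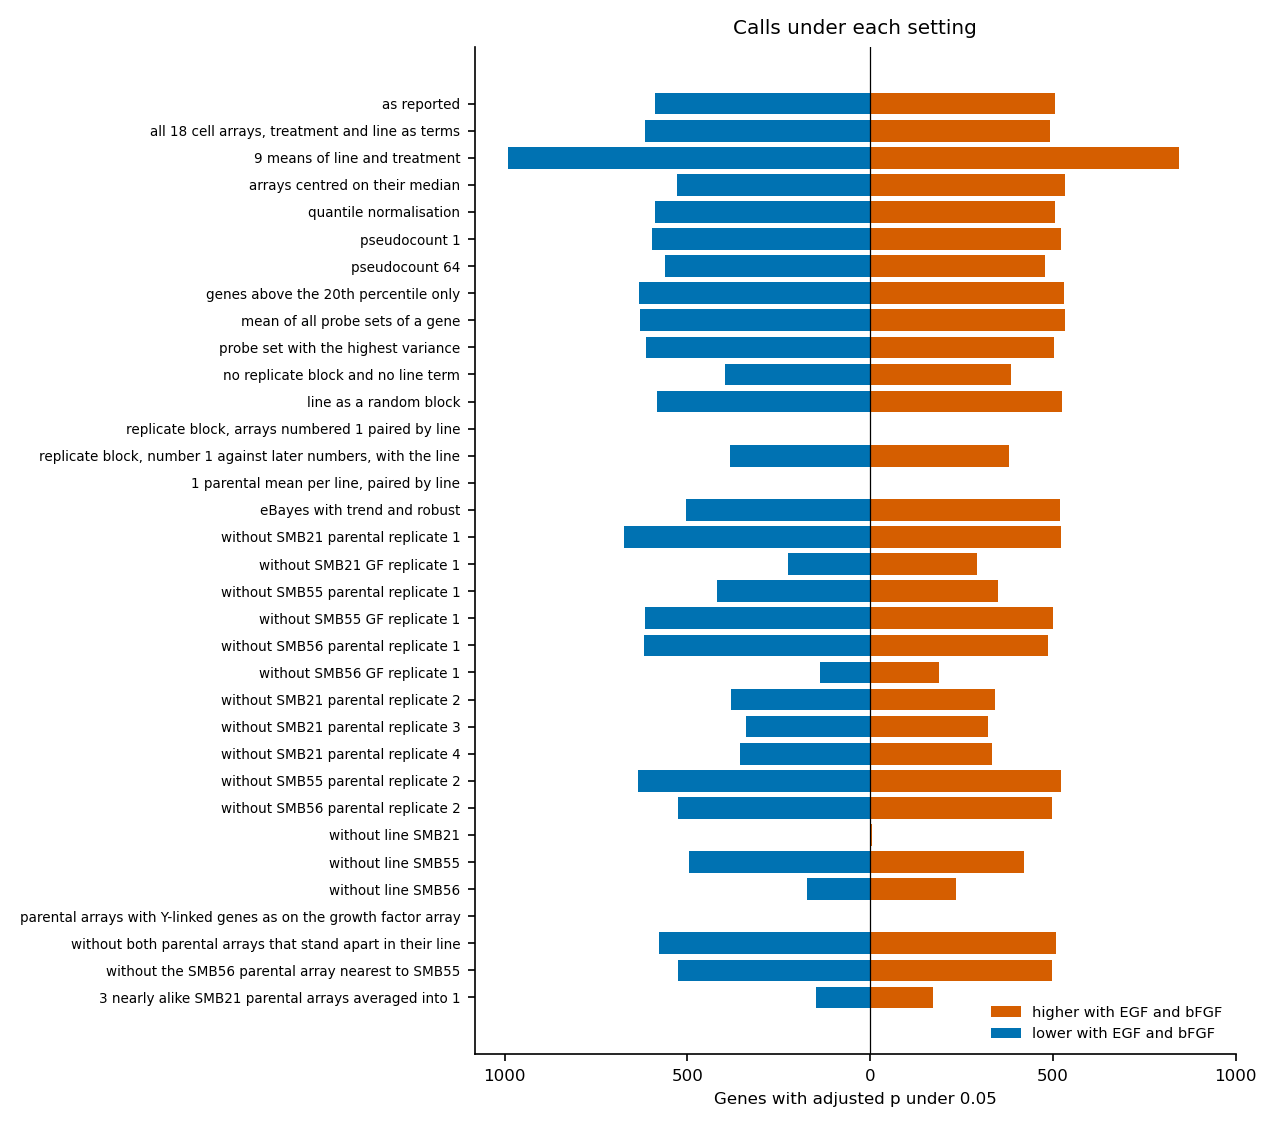
Genes with an adjusted p under 0.05 in each fit, with genes higher with EGF and bFGF to the right of 0 and genes lower to the left, both counted from 0. The reported fit (505 higher, 589 lower) is the top row, GF marks growth factor arrays, and the bars vanish or nearly vanish in the fits on arrays numbered 1 only, on parental means, on Y-matched parental arrays and without line SMB21.

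Several genes that report ERK activity rose. Of the 12 measured feedback inhibitors of the pathway, 6 rose, 0 fell and 6 did not pass, with a median difference of 0.91 over the 12. Over all genes 4.07% rose and 4.75% fell, the shares to set beside the counts of each list below. Signal below is log2(intensity + 16), and the 3 growth factor values are always those of SMB21, SMB55 and SMB56 in that order. Spry2, a Sprouty protein that restrains signalling from growth factor receptors to ERK, read 11.40, 11.37 and 11.94 on the growth factor arrays, against 8.30 at the lowest, 9.13 at the median and 9.97 at the highest of the 8 parental arrays. The growth factor arrays all lay above the parental ones, by 2.52 ± 0.28 (SE; adjusted p = 0.00353). Dusp6, a phosphatase that removes the activating phosphates of ERK, read 12.20, 12.58 and 13.24 with growth factors and had a parental median of 10.85 (9.81 to 11.41), a difference of 1.94 (adjusted p = 0.0154). Spry1 rose by 1.98 (adjusted p = 0.0103), Spry4 by 1.09 (adjusted p = 0.00215) and Spred1, an inhibitor that acts between RAS and RAF, by 1.07 (adjusted p = 0.00446). None of these 5 genes overlapped between the groups. They were called on the same arrays, so this describes them and is no further support. The share of all genes without such overlap was not counted. Of the 12, 7 lay above every parental array of their own line in all 3 lines, against 8.09% of all genes. In the fit with the SMB21 arrays averaged 5 of the 12 rose, and with the replicate block 6 did.

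Of 18 measured transcription factors and early genes induced by ERK, 7 rose, 0 fell and 11 did not pass (median 1.04). Etv4, an ETS factor, read 10.98, 10.24 and 10.38 on the growth factor arrays and 7.24 to 9.15 on the parental arrays, with a parental median of 8.16. The difference was 2.29 ± 0.39 (SE; adjusted p = 0.0119). Egr1, a zinc finger factor of the immediate early response, read 11.33, 11.35 and 12.13 against a parental median of 9.92 (8.99 to 10.57), a difference of 1.73 (adjusted p = 0.0173). Junb, a subunit of the AP-1 factor, rose by 1.72 (adjusted p = 0.012). Ier3, an early gene linked to cell survival, rose the most of the list: it read 13.91, 12.54 and 12.63 with growth factors, while its parental signal ranged from 5.93 to 11.24 and was low in SMB21 (up to 7.63). Its difference was 4.77 ± 1.04 (SE; adjusted p = 0.0265, and 0.0559 with the replicate block). Etv5 differed by 0.75 and did not pass (adjusted p = 0.21, and 0.047 with the replicate block). Averaging the SMB21 arrays left 1 of the 18.

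None of the kinases and adaptors that carry the signal passed the test. Of 13 measured genes of the RAS to ERK core, limma called 0 in either direction (2 at an unadjusted p under 0.05, against 25.2% of all genes), and their differences ran between -0.36 and 0.50. Of 19 measured EGF and FGF receptors and ligands, 4 rose and 0 fell (median 0.04). Fgf1, a ligand of the FGF receptors, read 9.32, 9.04 and 10.66 on the growth factor arrays and 5.73 to 7.44 on the parental arrays, a difference of 3.34 ± 0.43 (SE; adjusted p = 0.00498). Fgfr1, one of the receptors for bFGF, rose by 0.89 (adjusted p = 0.00609), and Egfr, the receptor for EGF, by 0.86 (adjusted p = 0.0233, and 0.0803 with the replicate block). Fgfr2 and Fgfr3 differed by -0.28 and -0.82 and did not pass (adjusted p = 0.624 and 0.669). Either the averaging of SMB21 arrays or the replicate block left 2 of the 19.

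**Figure D2:**
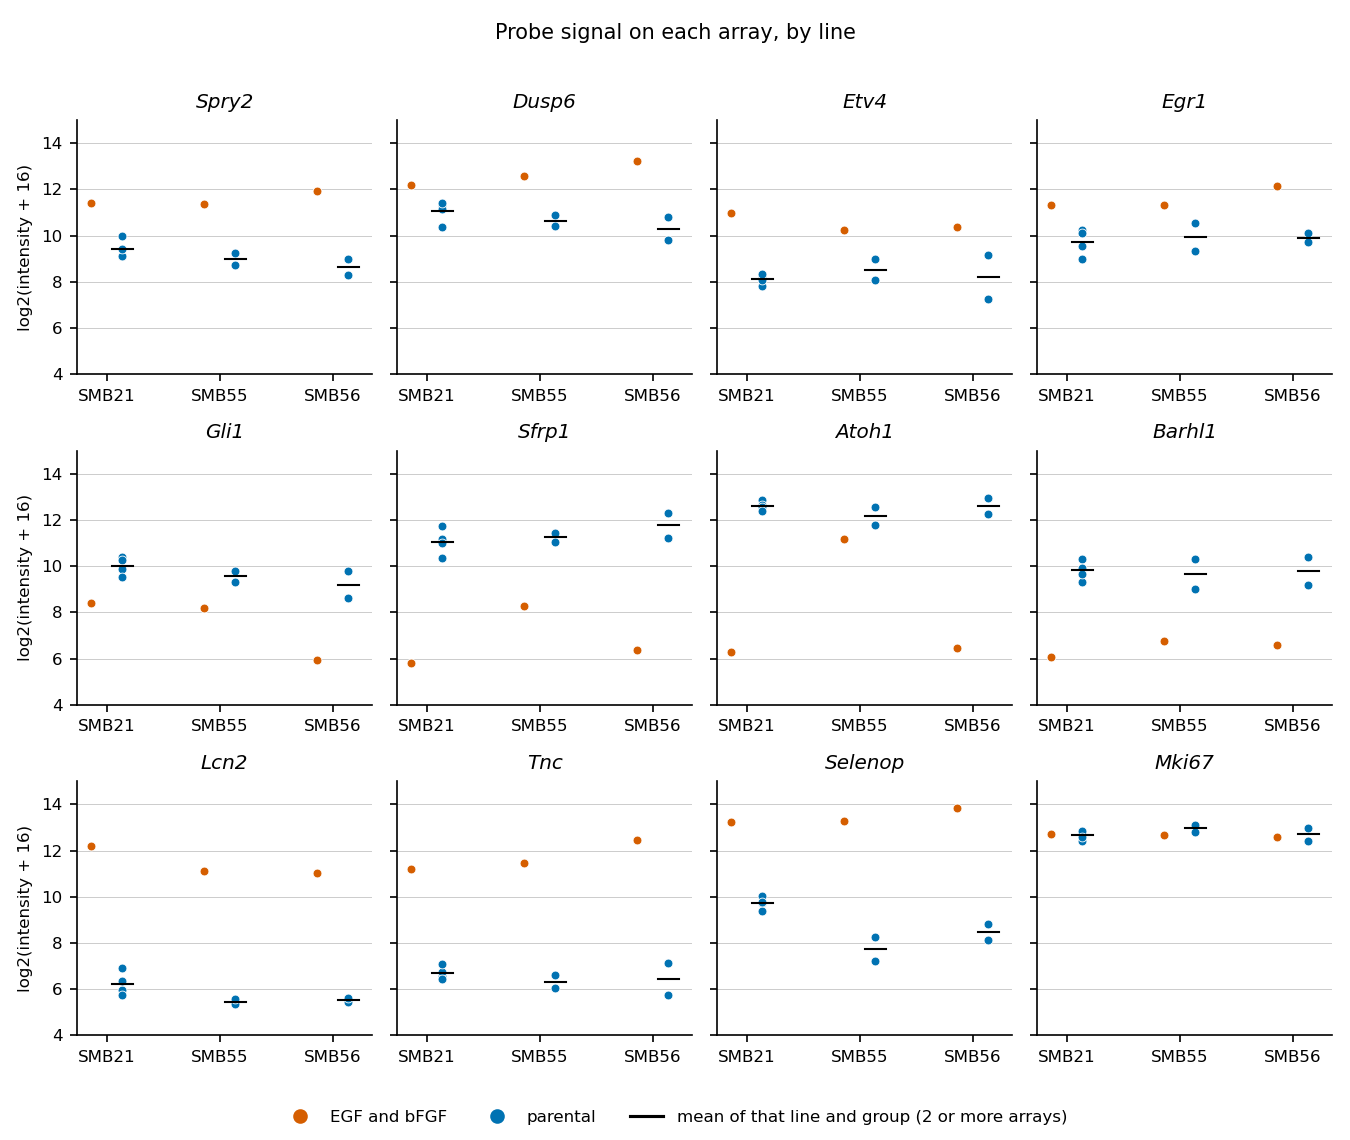
Signal of 12 genes, as log2(intensity + 16), on each growth factor array (left in each line, orange) and each parental array (right, blue), with the parental mean of the line as a bar. Spry2, Dusp6, Etv4 and Egr1 lie higher with growth factors in every line, Gli1, Sfrp1, Atoh1 and Barhl1 lie lower, Atoh1 by far less in SMB55, and Mki67 overlaps.

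Hedgehog targets fell in part. Of 15 measured target genes, 0 rose and 3 fell, while the median difference was 0.06. Gli1, the transcription factor whose own transcript is a standard readout of Hedgehog signalling, read 8.39, 8.18 and 5.93 on the growth factor arrays and 8.62 to 10.38 on the parental arrays, with a parental median of 9.80. It was lower in all 3 lines, and the difference was -2.07 ± 0.38 (SE; adjusted p = 0.0143, and 0.0511 with the replicate block). Sfrp1, a secreted Wnt antagonist, read 5.80, 8.30 and 6.37 with growth factors against a parental median of 11.20 (10.38 to 12.29), a difference of -4.58 ± 0.47 (SE; adjusted p = 0.00236). Mycn, the Myc family factor that Hedgehog induces in granule neuron precursors, read 8.68, 11.13 and 6.91 against 10.22 to 12.30 in parental cells. Its SMB55 growth factor value lay within the parental range of the other lines, and the difference was -2.58 (adjusted p = 0.0246, and 0.0507 with the replicate block).

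The other Hedgehog targets did not pass the test. Ptch1 read 11.94, 11.20 and 10.51 on the growth factor arrays, within or just below its parental range of 10.84 to 12.37 (difference -0.43, adjusted p = 0.552). Hhip, an antagonist that binds Hedgehog ligands, differed by 0.87 (adjusted p = 0.307), and the G1 cyclin Ccnd1 by 0.20 (adjusted p = 0.69). Of 9 pathway components, 0 rose and 2 fell (median -0.55). These were Boc, a Hedgehog co-receptor, by -1.25 (adjusted p = 0.0078), and Zic1, a zinc finger factor of the granule lineage, by -1.29 (adjusted p = 0.0106). Smo differed by -0.37 (adjusted p = 0.132). Gli2 differed by -1.33 (adjusted p = 0.0616) and read 11.27, 10.61 and 8.89 on the growth factor arrays. Of 16 measured genes of the primary cilium, the organelle through which Hedgehog signals, 1 rose and 2 fell (median -0.37): Tulp3 by 0.58 (adjusted p = 0.015), and the intraflagellar transport genes Ift81 by -1.02 (adjusted p = 0.00236) and Ift80 by -0.76 (adjusted p = 0.0127). With the SMB21 arrays averaged, and likewise with the replicate block, 1 of the 15 targets fell, which was Sfrp1 in both. Without SMB21 parental array 1 and SMB56 parental array 2, 2 of the 15 rose and 2 fell, and Mycn did not pass (adjusted p = 0.0621).

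Some genes of the granule neuron precursor fell. Of 18 measured members, 0 rose, 6 fell and 12 did not pass, with a median of -1.08. Of the 18 differences 3 lay above 0, against 48.2% of all genes. Atoh1, the basic helix-loop-helix factor that specifies the granule lineage, read 6.28, 11.19 and 6.47 on the growth factor arrays, against 11.79 at the lowest, 12.56 at the median and 12.97 at the highest on the parental arrays. It was low in SMB21 and SMB56 and 0.98 below the parental mean in SMB55. Over the lines the difference was -4.61 ± 0.84 (SE; adjusted p = 0.014), and it differed between lines (adjusted p = 0.0263). Barhl1, a homeobox factor of the same lineage, read 6.08, 6.75 and 6.60 with growth factors and 9.01 to 10.38 in parental cells, a difference of -3.31 ± 0.35 (SE; adjusted p = 0.0028). By line it differed by -3.74, -2.90 and -3.19. Insm1, a zinc finger factor of neuronal progenitors, fell by 2.82 on the log2 scale (adjusted p = 0.0133). Neurod1, which acts later in the lineage, read 7.02, 11.11 and 7.64 against 9.55 to 12.32 and did not pass (difference -2.09, adjusted p = 0.172). Averaging the SMB21 arrays left 3 of the 18.

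Of 30 measured genes of neuronal differentiation, 0 rose and 4 fell (median -0.43). Of the 30 differences 5 lay above 0, against 48.2% of all genes. Dcx, a microtubule protein of migrating neurons, read 5.77, 8.71 and 7.61 on the growth factor arrays and 9.38 to 11.10 on the parental arrays, a difference of -3.15 ± 0.59 (SE; adjusted p = 0.0156). Elavl3, an RNA-binding protein of neurons, differed by -1.99 (adjusted p = 0.00835), and Stmn4, a neuronal stathmin, by -0.95 (adjusted p = 0.0186, and 0.0545 with the replicate block). With the replicate block 1 member rose and 7 fell, and without SMB21 parental array 1 and SMB56 parental array 2 none rose and 8 fell. Of 13 genes of mature granule neurons, 0 rose and 2 fell (median -0.69). Cbln1, a secreted synapse organiser, read 5.66, 9.42 and 7.84 against 9.61 to 11.69 in parental cells, a difference of -3.24 (adjusted p = 0.0308, and 0.0802 with the replicate block). Reln, the secreted guidance protein reelin, read 5.41, 11.23 and 7.56 against 10.57 to 12.14, a difference of -3.59 (adjusted p = 0.0216, and 0.0634 with the replicate block), so that the SMB55 array lay among the parental ones. Averaging the SMB21 arrays left 1 of the 30, and neither of the 2 mature granule genes passed.

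Of 29 measured genes of neural stem and progenitor cells, 6 rose and 3 fell (median 0.77). Tnc, the matrix protein tenascin C, read 11.20, 11.48 and 12.46 on the growth factor arrays and 5.76 to 7.15 on the parental arrays, a difference of 5.16 ± 0.35 (SE; adjusted p = 0.000309), with no overlap. Slc1a3, a glutamate transporter of radial glia and astrocytes, read 11.51, 12.35 and 12.85 against a parental median of 9.72 (8.59 to 10.53), a difference of 2.43 (adjusted p = 0.014). The intermediate filament genes Nes and Vim rose by 1.24 (adjusted p = 0.0263, and 0.0903 with the replicate block) and 1.61 (adjusted p = 0.0322, and 0.106 with the replicate block). Cd24a, a surface protein of neural progenitors, fell by 1.28 on the log2 scale (adjusted p = 0.012). Averaging the SMB21 arrays left 2 rises and 1 fall.

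The progenitor factor Sox2 and the radial glia gene Fabp7 show how much the parental arrays differed. Fabp7 read 13.52, 14.24 and 14.60 on the growth factor arrays, above all parental arrays, but parental signal was 12.46 on SMB21 array 1 and 5.66 to 5.99 on SMB21 arrays 2 to 4, and 7.20 and 13.24 on the 2 SMB56 arrays. Its difference was 4.05 ± 1.78 (SE; adjusted p = 0.196), and adjusted p = 0.0374 without SMB21 parental array 1 and SMB56 parental array 2. Sox2 differed by 1.37 (adjusted p = 0.207, and 0.0393 without those 2 arrays). Olig1, a factor of the oligodendrocyte lineage, read 13.49, 13.53 and 13.34 against 5.72 to 13.97, and Olig2 read 5.49, 10.86 and 11.32 against 5.06 to 11.12. Neither passed (adjusted p = 0.41 and 0.545).

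Of 22 measured astrocyte and Bergmann glia genes, 3 rose and 0 fell (median 0.65). Besides Slc1a3 these were Mlc1, a membrane protein of astrocyte endfeet, by 2.65 (adjusted p = 0.00635), and Slc4a4, a bicarbonate transporter, by 2.30 (adjusted p = 0.00622). The astrocyte filament gene Gfap read 7.53, 6.99 and 6.96 against 6.42 to 7.48 and differed by 0.31 (adjusted p = 0.448). Of 15 oligodendrocyte genes limma called 0, with 1 at an unadjusted p under 0.05. In the Notch list of 22 genes, 3 rose and 2 fell (median 0.02): the receptors Notch3 and Notch1 rose by 2.01 (adjusted p = 0.000973) and 0.94 (adjusted p = 0.015), and Numb, which antagonises Notch, fell by 0.58 on the log2 scale (adjusted p = 0.0103). The Notch targets Hes1 and Hes5 differed by 0.92 and 0.56 and did not pass (adjusted p = 0.0673 and 0.593). Among 19 genes of the Id and BMP response limma called 0 (5 at an unadjusted p under 0.05), with Id1 at 1.69 (adjusted p = 0.072) and Id3 at 2.33 (adjusted p = 0.0678, and 0.0262 with the replicate block). In these bulk cultures, fewer cells of a type and less RNA per cell cannot be told apart.

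Markers of microglia stayed low. Of 20 microglia and macrophage genes, 18 were under a log2 signal of 7 on all 11 arrays. Their summed intensity was 843 to 1026 on the growth factor arrays and 745 to 899 on the parental arrays, against 24146 to 39042 on the arrays of primary tumors. The 1 gene of the list that passed, the lysozyme Lyz1, read 5.72, 5.47 and 5.98 against 5.12 to 5.58 (adjusted p = 0.0349, and 0.0563 with the replicate block). The summed intensity of 18 endothelial and pericyte genes was 6168 to 6657 with growth factors and 1795 to 7722 in parental cells, with the pericyte gene Rgs5 called at a difference of 1.04 (adjusted p = 0.0428, and 0.102 with the replicate block). That of 4 red blood cell genes was 139 to 158 with growth factors and 122 to 160 in parental cells. For 16 genes of fibroblasts and meninges the sums were 19951 to 26980 with growth factors and 7187 to 16986 without. In that list 2 genes rose and 1 fell (median 0.00). The insulin-like growth factor binding protein Igfbp2 rose by 3.45 (adjusted p = 0.00613) and the forkhead factor Foxc1 by 2.54 (adjusted p = 0.000309). Igfbp2 read 14.17, 13.44 and 14.33 against 8.62 to 12.33, where the list's median level with growth factors was 6.48. This 1 bright gene therefore weighs heavily in the sums. Islr, a secreted protein of mesenchymal cells, fell by 3.84 on the log2 scale (adjusted p = 0.00416). Astrocyte sums were 50388 to 72027 with growth factors and 13647 to 52738 without. The part of these markers in the other changes was not tested.

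**Figure D3:**
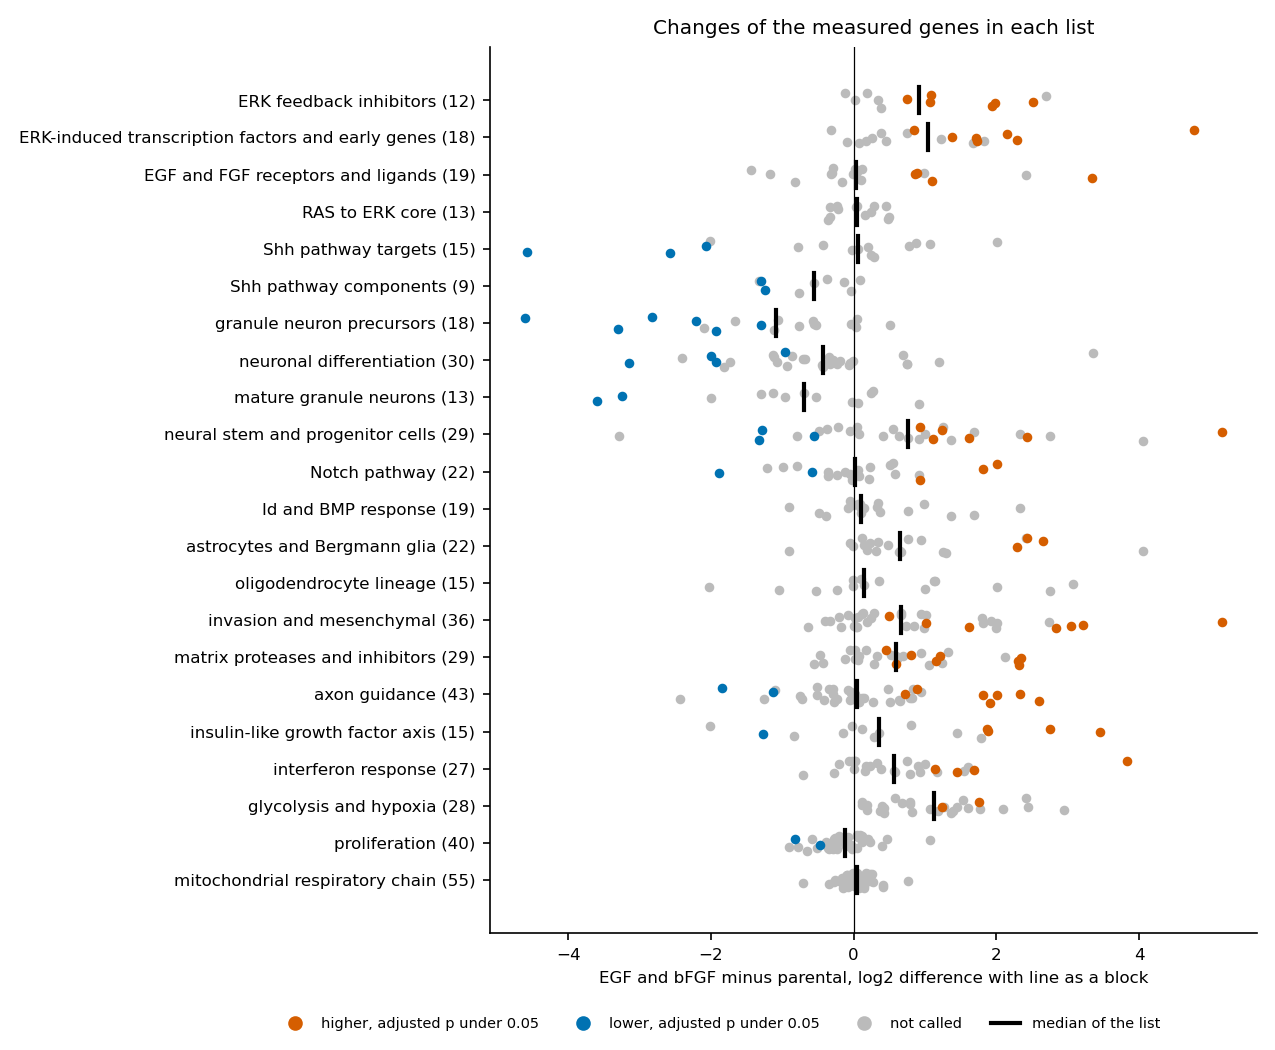
Difference of each measured gene, growth factor minus parental cells on the log2 scale with line as a block, in 22 gene lists, with the number of measured genes in brackets. Orange and blue points passed at an adjusted p under 0.05 and the black bar is the list's median. The called genes of both ERK lists (feedback inhibitors and induced factors) lie right of 0 and those of the granule neuron precursors left of 0.

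The 12 largest rises were led by Lcn2, A2m and Tnc, of which Tnc is given above. Lcn2, lipocalin 2, which binds bacterial iron carriers, read 12.20, 11.14 and 11.04 on the growth factor arrays, against 5.36 at the lowest, 5.67 at the median and 6.93 at the highest parental array. The difference was 5.73 ± 0.23 (SE; adjusted p = 1.63e-05), which is 53.1-fold on this scale, with 5.96, 5.67 and 5.52 in the 3 lines. A2m, the protease inhibitor alpha-2-macroglobulin, read 9.90, 10.46 and 12.90 against 5.70 to 6.01, a difference of 5.17 (adjusted p = 0.0013) that differed between lines (adjusted p = 0.00071). Chl1, a neural cell adhesion molecule, read 10.21, 10.44 and 11.96 against 5.39 to 7.47, a difference of 5.01 (adjusted p = 0.000509). All 3 genes read under 7 on every parental array, except Chl1 on SMB56 parental array 2.

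Selenop, the plasma carrier of selenium, read 13.25, 13.29 and 13.83 with growth factors and 7.22 to 10.05 in parental cells, a difference of 4.72 ± 0.39 (SE; adjusted p = 0.000973). Nap1l5, an imprinted gene of the nucleosome assembly protein family, rose by 4.86 (adjusted p = 0.000143), and Ramp1, which joins a receptor for calcitonin gene-related peptide, by 4.19 (adjusted p = 0.00127). Tubb6, a beta tubulin, rose by 4.35 (adjusted p = 0.0062), Mxra8, a cell adhesion protein, by 3.87 (adjusted p = 0.00703), and Ifitm3, an antiviral membrane protein, by 3.83 (adjusted p = 0.00613). Tm4sf1, a tetraspanin-like surface protein, read 6.52, 12.36 and 11.65 against 5.69 to 6.80, so that its rise of 3.91 came mostly from SMB55 and SMB56 (adjusted p = 0.027, and 0.0674 with the replicate block).

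The largest falls held regulators and secreted proteins next to the lineage genes given above. Sfrp2, a second secreted Wnt antagonist, read 5.38, 6.72 and 6.86 on the growth factor arrays and 7.87 to 11.36 on the parental arrays, a difference of -3.75 (adjusted p = 0.0127). Mycl, a Myc family factor, read 6.33, 9.47 and 6.22 against 10.43 to 11.64, a difference of -3.61 (adjusted p = 0.0118). Scg5, a chaperone of the secretory granule, read 5.23, 10.70 and 5.77 against 10.68 to 11.59, a difference of -4.06 (adjusted p = 0.0198, and 0.0712 with the replicate block) that also differed between lines (adjusted p = 0.00948). In Scg5 and Mycl, as in Atoh1, the SMB55 growth factor array stayed nearest to its parental arrays. Rbp4, the retinol carrier of plasma, differed by -3.54 (adjusted p = 0.00807), the calmodulin regulator Pcp4 by -3.76 (adjusted p = 0.0121), the small heat shock protein Hspb8 by -3.51 (adjusted p = 0.0127) and the interferon-inducible gene Mndal by -3.82 (adjusted p = 0.00462).

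**Figure D4:**
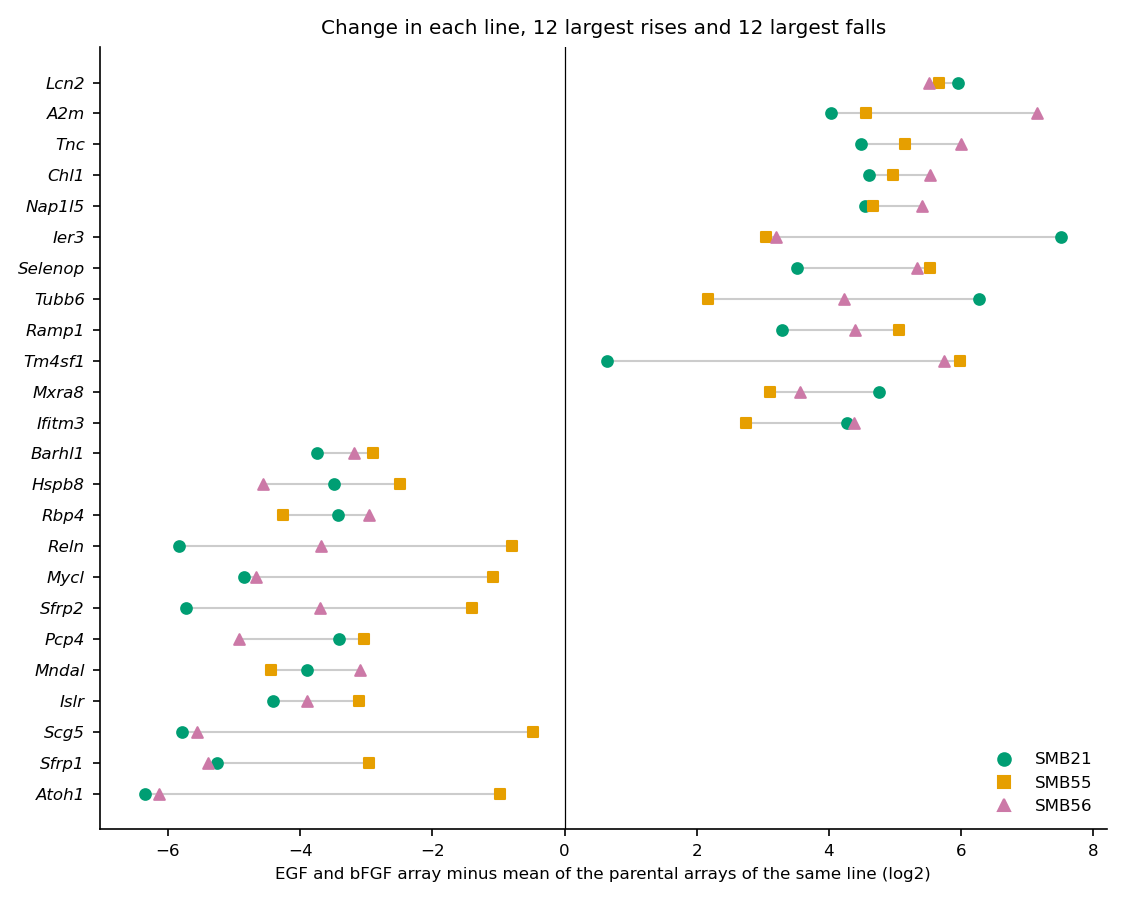
Difference in each line, as the growth factor array minus the mean of the parental arrays of that line on the log2 scale, for the 12 largest rises and the 12 largest falls. Circles are SMB21, squares SMB55 and triangles SMB56. The 3 lines lie close together for Lcn2 and Barhl1, whereas SMB55 lies near 0 for Scg5, Reln and Atoh1 and SMB21 near 0 for Tm4sf1.

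Calls among genes of invasion and matrix remodelling were all rises. Of 36 measured invasion and mesenchymal genes, 7 rose and 0 fell (median 0.66). Cd44, the hyaluronan receptor, read 11.64, 10.40 and 11.90 on the growth factor arrays and 6.92 to 9.35 on the parental arrays, a difference of 3.04 ± 0.40 (SE; adjusted p = 0.00563). Itgav, an integrin subunit, rose by 1.02 (adjusted p = 0.00353), and Anxa1, a phospholipid-binding annexin, read 11.005, 8.22 and 8.75 against 6.10 to 6.38, a difference of 3.21 (adjusted p = 0.00609). Of 29 matrix proteases and their inhibitors, 8 rose and 0 fell (median 0.60). Timp1, an inhibitor of matrix metalloproteases, rose by 1.15 (adjusted p = 0.00285), and the membrane proteases Adam19 and Adam9 by 2.31 (adjusted p = 0.00787) and 1.21 (adjusted p = 0.0103). Of 29 collagens, laminins and related genes 2 rose (6.9%) and 0 fell: the laminin chain Lamc1 by 1.07 (adjusted p = 0.0262, and 0.0837 with the replicate block) and nidogen, Nid1, by 1.52 (adjusted p = 0.0386, and 0.121 with the replicate block). With the SMB21 arrays averaged, the counts that rose were 5 of 36, 4 of 29 and 0 of 29.

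Guidance and growth factor axes also contained called genes. Of 43 axon guidance genes, 7 rose and 2 fell (median 0.05). Nrp1, a receptor for semaphorins and vascular endothelial growth factor, read 11.03, 10.61 and 12.005 against 7.84 to 9.89, a difference of 2.33 (adjusted p = 0.011), its partner Plxnd1 rose by 2.01 (adjusted p = 0.00988), and the ligand Sema3a by 2.59 (adjusted p = 0.0127). Of 15 genes of the insulin-like growth factor axis, 4 rose and 1 fell (median 0.36). Besides Igfbp2 they included the adaptor Irs2, which read 11.12, 9.99 and 10.69 against 8.52 to 9.10 and rose by 1.89 ± 0.20 (SE; adjusted p = 0.0028), and Igfbp4, which rose by 2.76 (adjusted p = 0.0151). Of 31 cytokines and chemokines, 3 rose and 0 fell (median 0.19). Il33, an alarmin of the interleukin 1 family, read 8.97, 9.36 and 10.41 against 5.38 to 6.56, a difference of 3.65 ± 0.30 (SE; adjusted p = 0.000934), and the secreted factors Bdnf and Lif rose by 1.38 (adjusted p = 0.0122) and 0.97 (adjusted p = 0.0127). Of 27 interferon response genes 4 rose and 0 fell (median 0.56), among them Ifi35 by 1.14 (adjusted p = 0.0365, and 0.0599 with the replicate block) and the GTPase Irgm1 by 1.45 (adjusted p = 0.0408, and 0.0707 with the replicate block). With the replicate block or the SMB21 arrays averaged 1 of the 27 rose, and without SMB21 parental array 1 and SMB56 parental array 2, 2 rose and 1 fell.

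In glycolysis and hypoxia, 2 of 28 genes rose (7.1%, against 4.07% of all genes) and 0 fell, and all 28 differences lay above 0 (0.12 to 2.95, median 1.13), against 48.2% of all genes above 0. Hk1, which starts glycolysis, read 11.10, 10.77 and 11.31 on the growth factor arrays and 8.72 to 10.24 on the parental arrays, a difference of 1.76 (adjusted p = 0.00941). Pfkp, a phosphofructokinase, rose by 1.24 (adjusted p = 0.0173). With the replicate block 12 of the 28 rose, and with the SMB21 arrays averaged 1 did. Of 29 cholesterol genes 3 rose (10.3%) and 0 fell. The desaturase Scd1 rose by 1.55 (adjusted p = 0.0186). Dhcr7 rose by 0.58 (adjusted p = 0.04, and 0.126 with the replicate block) and Abca1 by 1.33 (adjusted p = 0.0474, and 0.0891 with the block). All 3 had an adjusted p over 0.05 with the SMB21 arrays averaged. Of 36 genes of the amino acid stress response 4 rose (11.1%) and 0 fell, among them the factor Cebpb by 1.94 (adjusted p = 0.00635). Among 37 cytosolic ribosomal protein genes and 55 genes of the mitochondrial respiratory chain limma called 0, with 3 and 5 genes at an unadjusted p under 0.05 and medians of -0.12 and 0.05.

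Of 40 measured proliferation genes, 0 rose and 2 fell (median -0.12). Mki67, present in cycling cells, read 12.74, 12.70 and 12.61 on the growth factor arrays, inside its parental range of 12.43 to 13.13, with a difference of -0.09 ± 0.15 (SE; adjusted p = 0.782). Top2a differed by 0.14 (adjusted p = 0.681). The 2 that fell were the cyclin Ccne2, by 0.82 on the log2 scale (adjusted p = 0.0157), and the replication helicase subunit Mcm6, by 0.48 (adjusted p = 0.0361, and 0.0569 with the replicate block). Of 25 Cdk inhibitors and p53 target genes, 1 rose and 2 fell. Plk2 rose by 2.39 (adjusted p = 0.0108), while Sesn1 and Trp53inp1 differed by -0.55 (adjusted p = 0.0174, and 0.0569 with the replicate block) and -1.25 (adjusted p = 0.04). Cdkn2a read 12.06, 11.84 and 12.31 against 11.28 to 12.48 (difference 0.20, adjusted p = 0.653), and Cdkn1a differed by 0.98 (adjusted p = 0.407).

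Promoters of called genes were read to show the letters upstream of genes that moved together. RefSeq sequence of build GRCm38.p6 was used, from 250 bases before to 50 bases after the start of the gene, and 100 of the 127 named genes had an entry. The first search was for TGANTCA, the element bound by AP-1, which reads the same way on both strands. It was present in 6.25% of 384 promoters of genes that rose, 2.85% of 492 promoters of genes that fell and 6.27% of 9887 promoters of tested genes. Of the named genes that rose, 3 with a match were Ifitm3 (chr7:141010695-141010994, minus strand), Lif (chr11:4257318-4257617, plus strand) and Ifi35 (chr11:101448162-101448461, plus strand). These 3 genes were not picked from all named genes that rose, so one with a smaller p may also hold a match. Capitals mark the match, which begins 105, 228 and 250 bases before the start site in these 3 genes, and sequences run along the gene's strand.
Ifitm3: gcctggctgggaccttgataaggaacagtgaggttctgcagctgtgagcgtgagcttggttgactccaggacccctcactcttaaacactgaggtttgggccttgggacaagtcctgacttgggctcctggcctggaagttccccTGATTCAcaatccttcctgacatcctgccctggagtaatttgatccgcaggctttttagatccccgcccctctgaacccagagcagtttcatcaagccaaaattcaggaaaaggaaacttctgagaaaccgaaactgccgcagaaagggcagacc
Lif: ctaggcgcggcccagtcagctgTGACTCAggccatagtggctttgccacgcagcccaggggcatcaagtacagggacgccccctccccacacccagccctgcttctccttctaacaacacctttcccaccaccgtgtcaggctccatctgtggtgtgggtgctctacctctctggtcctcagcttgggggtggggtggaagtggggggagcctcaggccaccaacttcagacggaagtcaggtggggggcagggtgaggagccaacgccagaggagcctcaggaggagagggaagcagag
Ifi35: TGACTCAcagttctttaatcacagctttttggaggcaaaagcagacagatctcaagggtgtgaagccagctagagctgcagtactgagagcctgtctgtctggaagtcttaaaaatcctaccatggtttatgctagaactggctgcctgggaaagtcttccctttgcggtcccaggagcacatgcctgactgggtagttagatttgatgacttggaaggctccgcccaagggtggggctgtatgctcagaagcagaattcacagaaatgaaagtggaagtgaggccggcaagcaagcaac

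The second search was for CCACCCA on either strand, the core of the element bound by Gli factors. It was present in 10.94% of promoters of genes that rose, 9.55% of promoters of genes that fell and 9.81% of promoters of tested genes. The first 3 named genes by p that fell with a match were Numb (chr12:83921885-83922184, minus strand), Scg5 (chr2:113829042-113829341, minus strand) and Mycn (chr12:12941787-12942086, minus strand). The match begins 13 and 8 bases before the start site in Numb and Scg5 and at base 27 in Mycn, with the start site as base 1, where, as in Scg5, the reverse complement is the one seen. By their letters, matches to the 2 motifs cannot overlap. A match describes the letters only and is not a site shown to be bound.
Numb: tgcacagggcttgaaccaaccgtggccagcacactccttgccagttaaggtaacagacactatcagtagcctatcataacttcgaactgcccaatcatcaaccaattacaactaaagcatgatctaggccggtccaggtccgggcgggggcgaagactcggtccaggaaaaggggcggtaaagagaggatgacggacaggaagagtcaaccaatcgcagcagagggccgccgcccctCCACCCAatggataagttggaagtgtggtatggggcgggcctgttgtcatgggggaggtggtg
Scg5: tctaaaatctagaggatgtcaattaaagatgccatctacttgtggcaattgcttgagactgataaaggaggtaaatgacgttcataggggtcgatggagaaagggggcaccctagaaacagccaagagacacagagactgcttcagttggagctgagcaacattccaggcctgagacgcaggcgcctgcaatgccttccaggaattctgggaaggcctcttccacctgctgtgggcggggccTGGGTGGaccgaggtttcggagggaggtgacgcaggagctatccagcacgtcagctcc
Mycn: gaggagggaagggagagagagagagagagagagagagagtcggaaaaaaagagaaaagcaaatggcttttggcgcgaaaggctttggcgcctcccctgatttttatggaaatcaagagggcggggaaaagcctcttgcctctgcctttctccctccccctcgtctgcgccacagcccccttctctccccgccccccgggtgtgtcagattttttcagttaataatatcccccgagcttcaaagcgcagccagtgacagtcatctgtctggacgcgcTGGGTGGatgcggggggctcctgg

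Among the called genes, the differences were smaller in SMB55 than in the other lines. Over the 505 genes that rose, the median difference was 1.35 in SMB21, 0.91 in SMB55 and 1.41 in SMB56, and over the 589 that fell it was -0.82, -0.57 and -0.80. SMB55 had the smallest of the 3 differences for 299 of the 505 and 372 of the 589. The same arrays chose these genes, so these values describe the arrays and do not test a difference between lines. A test of the difference itself, with the spread taken from all 18 cell arrays, found 174 genes (1.4%) whose response differed by line, of which 25 were also among the 1094. Each line has 1 growth factor array, so that spread comes from the parental and RAS arrays among the 18. For the same reason, line and culture cannot be told apart in these genes. Leaving out 1 parental array at a time moved the count between 65 and 339, with the lowest count without SMB21 parental array 4 and the highest without SMB56 parental array 2.

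Among the genes with the smallest p for a difference by line, Bex1, a small protein of the nervous system, read 4.91, 11.85 and 8.81 on the growth factor arrays and 4.86 to 5.09 on all 8 parental arrays (adjusted p = 4.15e-08). Bex1 was thus high in SMB55, lower in SMB56 and at the floor in SMB21. The parental and RAS arrays, which give the spread in this test, lay between 4.86 and 5.22 for Bex1. They lay between 5.33 and 6.20 for Car12 and between 6.14 and 6.77 for Nr1h3. The small p-values of these genes therefore do not measure the spread between growth factor cultures. Car12, a membrane carbonic anhydrase, read 10.11, 6.02 and 5.62 against 5.33 to 5.61 (adjusted p = 3.17e-05), and was high in SMB21 alone. Nr1h3, the nuclear receptor LXR alpha, read 9.16, 6.39 and 6.81 against 6.35 to 6.75 (adjusted p = 0.00155). Fgf8, an FGF ligand, read 6.13, 10.84 and 5.91 against 7.33 to 8.51 (adjusted p = 0.00111), which is above its parental arrays in SMB55 and below them in the other lines. Cdk16, a cyclin-dependent kinase, read 12.32, 12.43 and 9.85 against 11.91 to 12.55 (adjusted p = 0.00131), and was low in SMB56 alone.

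The growth factor cells were then set directly against RAS transformed cells of the same lines, which tests where an added growth factor and a RAS change differ. Kdm5d and Uty lay between 7.78 and 8.86 on the SMB21 and SMB56 growth factor arrays, against 4.85 to 5.13 on all 7 RAS arrays. The part of this in the comparison was not tested. Of 12393 genes, 1152 were higher (9.3%) and 1199 lower (9.67%) in growth factor cells. With each array centred on its median, 1529 were higher and 949 lower, so the share that was higher depended on the scaling. With treatment and line as terms, 676 were higher and 708 lower. Without the SMB55 growth factor array those counts were 249 and 208, and with only the arrays numbered 1, paired by line, limma called 0 genes (2080 at an unadjusted p under 0.05).

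Of the 505 genes that rose against parental cells, 150 were also higher than in RAS cells, 54 were lower and 301 passed in neither direction. Of the 589 that fell, 154 were also lower than in RAS cells, 28 were higher and 407 passed in neither direction. Over all genes 9.3% were higher and 9.67% lower than in RAS cells. Both comparisons use the same 3 growth factor arrays. Genes chosen as high or low on them therefore lean the same way against RAS cells. With 1 growth factor array per line, the spread in this fit comes from the parental and RAS arrays alone. Its p-values therefore do not measure the spread of the growth factor arrays. A2m, at 9.90, 10.46 and 12.90 on the growth factor arrays, lay between 5.56 and 6.56 on the 7 RAS arrays, a difference of 5.16. Its SD was 1.60 on the growth factor arrays, against 0.11 on the parental and 0.35 on the RAS arrays. Nap1l5 read 11.98, 10.74 and 11.72 against 5.84 to 7.65 in RAS cells (difference 5.24, adjusted p = 1.04e-05), and Ramp1 read 11.98, 11.28 and 11.14 against 5.54 to 8.12 (difference 5.02, adjusted p = 1.73e-05). These 3 genes read higher on each growth factor array than on any other cell array. Anxa1 read 11.005, 8.22 and 8.75 with growth factors and 11.75 to 14.51 in RAS cells (difference -3.84, adjusted p = 4.23e-06). Hmga2, a chromatin protein of embryonic cells, read 7.01, 8.68 and 8.71 against 9.64 to 13.51 (difference -3.49, adjusted p = 2.05e-05). Timp1 read 7.39, 7.57 and 7.49 against 7.42 to 14.35 (difference -4.02, adjusted p = 0.000384), and the groups met in SMB56.

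Of the 18 ERK-induced transcription factors and early genes, 0 were higher and 7 lower with growth factors than with RAS (median -0.86), among them Egr1 by -1.39 (adjusted p = 0.0205) and Junb by -1.07 (adjusted p = 0.0187). Of the 12 feedback inhibitors, 1 was higher, Spry2 by 1.18 (adjusted p = 0.0159), and 3 were lower. Dusp6 differed by -0.86 and did not pass (adjusted p = 0.056). Of the 18 granule neuron precursor genes, 4 were higher and 1 lower with growth factors. Atoh1 read 5.40 to 7.63 in RAS cells, and its difference of 1.87 (adjusted p = 0.00837) had the SMB55 growth factor array alone above the RAS arrays. Barhl1 differed by 0.13 (adjusted p = 0.802) and Gli1 by 0.74 (adjusted p = 0.234). Of 29 matrix proteases and inhibitors 0 were higher and 11 lower, and of 20 TGF-beta genes 1 was higher and 10 lower. The shares over all genes were 9.3% higher and 9.67% lower.

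**Figure D5:**
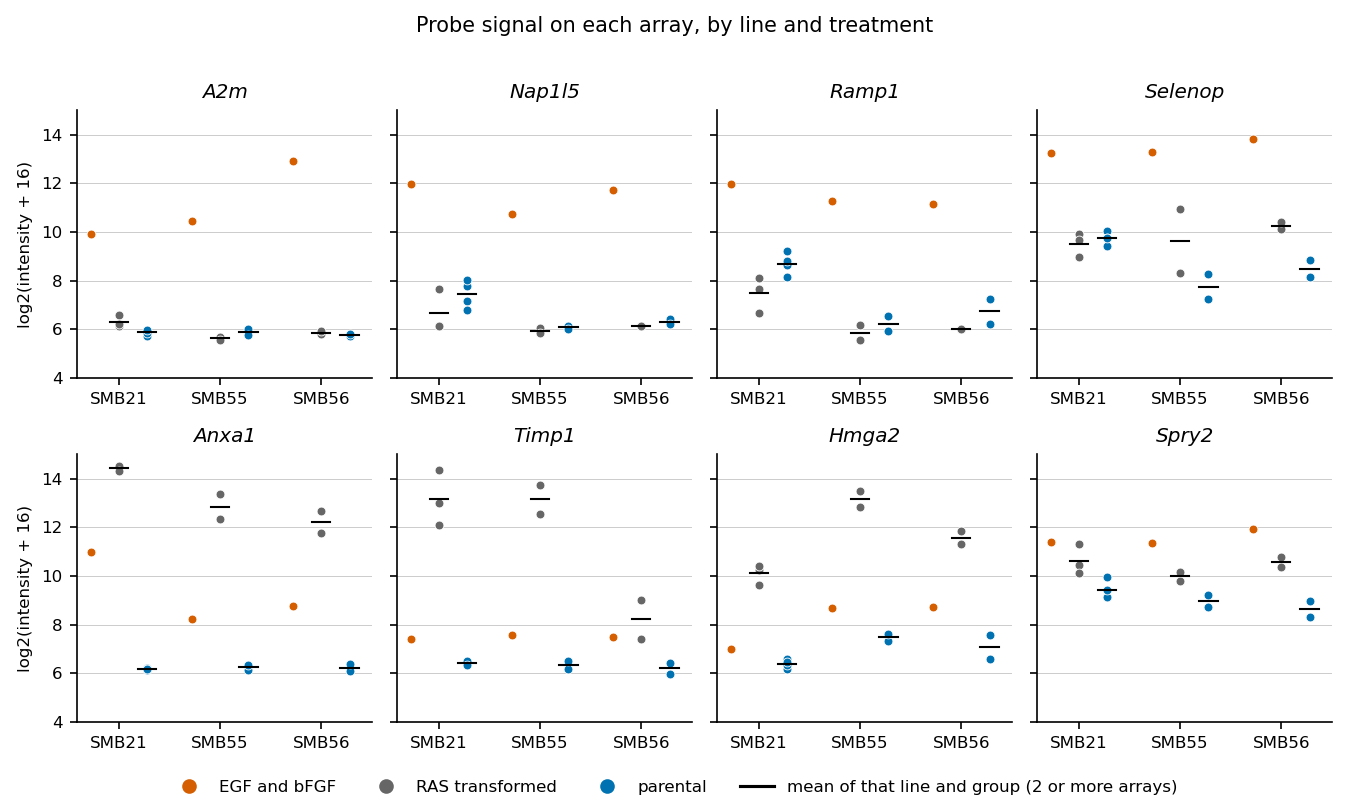
Signal of 8 genes, as log2(intensity + 16), on each growth factor array (left in each line, orange), RAS array (middle, grey) and parental array (right, blue), with bars for means of 2 or more arrays. A2m, Nap1l5, Ramp1 and Selenop read higher on each growth factor array than on any other, Anxa1 and Hmga2 are highest with RAS in each line, and Timp1 meets in SMB56.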

How the data were processed

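Log2 expression of 24 mouse arrays was built from one table of probe set intensities deposited by the authors. How they were normalised is not stated in the labels or headers. Per the labels' protocols, RNA was extracted with Trizol, labelled with biotin and hybridised by the Affymetrix protocol. The table holds 22690 probe sets with intensities up to 37842. Median intensity was 215.8 to 245.1 on the 18 cell arrays and 188.8 to 245.1 on all 24. The number of arrays limits the precision.

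Values were taken as log2(intensity + 16), which understates the change of dim genes. Of the probe sets, 20393 had 1 gene symbol in the platform annotation, 691 had several and 1606 none, and 64 were controls. Each gene was read from its brightest probe set (mean of the 24 arrays), giving 12393 genes. Among 100 called genes that are named, none had probe sets that moved over 0.3 in opposite directions. The size of the change still varied between probe sets of some genes, as in Mycn (-2.62 to 0.12), Boc (-1.40 to 0.02) and Egfr (0.07 to 1.57). In others, such as Spred1 (1.04 to 1.44), it was close.

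A linear model with treatment and line as terms, which leaves 7 residual degrees of freedom, was run on the 11 arrays in limma 3.58.1 (R 4.3.3). Tests were two-sided, with Benjamini-Hochberg adjustment over all genes and a threshold of 0.05. A difference by line was tested with an F test on 9 means of line and treatment over 18 arrays, and growth factor against RAS cells in the same fit with lines weighted equally. The fits were tested on simulated data. The labels call the arrays biological replicates and do not say whether cultures were separate, so p-values measure the spread between these arrays, which may be technical.

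The members and gene lists were chosen with earlier results of these data known. Named genes were the 12 largest rises and falls that were beyond every parental array of their line in all 3 lines, the called members of each list with the smallest p (at most 3), a list of pathway and lineage genes that is always given, the 6 genes with the smallest p by line, and the 3 largest differences each way against RAS. Anything named outside this rule was chosen after its values were seen. The growth factor arrays carry replicate number 1. Their deviations correlated with those of parental array 1 of the same line at 0.2155, 0.3392 and 0.1043 for SMB21, SMB55 and SMB56, each over 0.1, so the fit with that block is given where it changes a call. With parental array 2 of the same line they correlated at 0.2725, 0.2052 and 0.1098, so number 1 was the closer of these in SMB55 alone. Of the 100 called named genes, 71 kept an adjusted p under 0.05 in that fit.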

Additional observations from a re-analysis of the deposited data

Results flagged for a closer look

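The 8 parental arrays were screened for a sample far from the others in 127 named genes, and chance alone gives such a gap in about 1 of 20 groups. It was found for 7 genes, which is near that rate. Chl1 read 7.47 on SMB56 parental array 2, Lyz1 read 5.58 on the same array and Psmb10 read 10.01 on SMB56 parental array 1. Tm4sf1 read 6.80 and Trp53inp1 read 12.65 on SMB55 parental array 1, Lif read 6.56 on SMB21 parental array 2, and Car12 read 5.33, the lowest, on SMB55 parental array 2. Of these genes Chl1, Tm4sf1, Lyz1, Trp53inp1, Lif and Psmb10 were called against growth factor cells. The block moved Psmb10 to an adjusted p of 0.0547, Lyz1 to 0.0563 and Tm4sf1 to 0.0674.

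A response that differed between the lines, in the test of the difference itself, was found for 13 named genes. The spread in that test comes from parental and RAS arrays only, as each line has 1 growth factor array. For the 6 chosen by this test the adjusted p was 4.15e-08 for Bex1, 3.17e-05 for Car12, 0.00071 for A2m, 0.00111 for Fgf8, 0.00131 for Cdk16 and 0.00155 for Nr1h3. It was 0.00948 for Scg5, 0.0169 for Hes5, 0.0263 for Atoh1, 0.0277 for Cbln1, 0.0297 for Gli2, 0.0372 for Anxa1 and 0.0392 for Tubb6. Hes5 read 5.77, 10.58 and 8.72 on the SMB21, SMB55 and SMB56 growth factor arrays, against 6.62 to 9.17 on the parental arrays. Under 12 other settings A2m, Fgf8, Cdk16, Nr1h3, Scg5 and Hes5 passed in all, while Atoh1 passed in 8, Gli2 in 7, and Anxa1, Cbln1 and Tubb6 in 6.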

How the results depend on the processing

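The 505 rises and 589 falls became 845 and 990 with 9 means of line and treatment, 379 and 385 with the replicate block (number 1 against later numbers, with the line), and 0 and 0 with the replicate block of arrays numbered 1 only, paired by line. They were 1 and 0 with 1 parental mean per line, 6 and 0 without line SMB21, and 236 and 173 without line SMB56. Of settings chosen after seeing the data, Y-matched parental arrays gave 3 and 0, and averaging SMB21 parental arrays 2 to 4 gave 173 and 148. Leaving out 1 array at a time gave 187 to 522 rises and 137 to 675 falls. The 18-array fit, centring, quantile normalisation, pseudocounts of 1 and 64, the filter on dim genes, both other probe set rules, the fits without a line term or with line as a random block, the trend option and leaving out line SMB55 kept each count within 1.5 times. All 1094 calls kept their sign wherever tested, except that 1091 did with the most variable probe set. These fits share most of their arrays, so an unchanged sign is no separate support. Over all settings, 2450 values of single named genes that were called stayed past the threshold and 848 lost it, and none of them changed sign. The block ended the calls of 29 of 100 named genes, added Etv5 and Id3, and changed no other.

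The 174 differences by line ran between 65 and 339 when 1 parental array was left out, and stayed within 1.5 times under the other 4 settings. The 1152 and 1199 genes against RAS cells became 676 and 708 with treatment and line as terms, 249 to 753 and 208 to 786 with 1 array left out of that fit, and 0 and 0 with the replicate block of arrays numbered 1. They stayed within 1.5 times with centring, a pseudocount of 64 and the filter on dim genes. With 1 growth factor array per line, a lone array is assumed to vary like the others. Signals near 5 are at the floor, so falls to that level may be understated.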

Other observations

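Counts of called genes differed between chromosomes. On chromosome 5, 20 genes rose and 72 fell of 771 tested, and on chromosome 4, 18 rose and 55 fell of 739. On chromosome 16, 10 rose and 35 fell of 414, with a median difference of -0.11 over its genes (-0.21 in SMB21, -0.03 in SMB55 and -0.08 in SMB56). Chromosome 6 had the reverse balance, with 43 rises and 14 falls of 725 and a median of 0.05, and on chromosome 11, 60 rose and 33 fell of 1041. No test was made of these counts.

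Calls in 4 further lists were as follows. Gria4, an AMPA receptor subunit, rose by 1.18 (adjusted p = 0.0471, and 0.0605 with the replicate block). The sodium channel Scn8a differed by -1.17 (adjusted p = 0.0328, and 0.0963 with the replicate block). Cacna2d3, of the same list of ion channels, differed by -1.57 (adjusted p = 0.0472, and 0.0936 with the replicate block). Of 13 genes of Purkinje cells and inhibitory neurons, 1 rose (7.7%) and 3 fell (23.1%), with the parvalbumin gene Pvalb at -2.26 (adjusted p = 0.0103) and the homeobox factor Lhx1 at -2.89 (adjusted p = 0.0184). Of 20 TGF-beta genes 2 rose, the ligand Tgfb1 by 0.70 (adjusted p = 0.0226, and 0.0693 with the replicate block) and Smad3 by 0.65 (adjusted p = 0.0307, and 0.0992 with the replicate block).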
